A study of Mus musculus with 12 samples.

Results

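The BCL2 family of apoptosis regulators was followed through ribosome footprints and RNA of KPC cells exposed to cisplatin (Cis). The members were chosen by gene symbol, as 10 of the 15803 genes listed in the files: the anti-apoptotic Bcl2l1 and Mcl1, the effectors Bax and Bak1, and the BH3-only genes Bid, Bad, Bik, Bbc3, Pmaip1 and Bcl2l11. KPC is a mouse pancreatic ductal adenocarcinoma line made from tumours of mice in which a pancreatic Pdx1-Cre switches on conditional alleles, a mutant Trp53 among them, so treated and untreated cells carry the same alleles and all values describe 1 line. Per the methods, the cells received 20 μM Cis for 6 h or 21 h, or PBS as the untreated control. The methods give PBS for 6 or 21 h and the labels give no duration, so the 1 PBS group may match only 1 of the 2 times. Each group had 2 Ribo-seq libraries, which hold ribosome-protected fragments from cycloheximide lysates, and 2 RNA-seq libraries, 12 in all. Nothing in the labels says that the libraries of a group came from separate cultures, so every p-value measures only the spread between these samples, which may be technical, and both times were compared with the same PBS libraries.

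The BCL2 family decides whether the outer mitochondrial membrane is breached in apoptosis. Bcl2l1 (BCL-XL) and Mcl1 hold back Bax and Bak1, which oligomerise into pores that release cytochrome c, while the BH3-only proteins occupy the groove of the anti-apoptotic members or engage the effectors directly. Mcl1 is a short-lived protein that depends on continuous synthesis, whereas Bcl2l1 is long-lived. Cisplatin crosslinks DNA, and the balance of these proteins is a known determinant of how carcinoma cells withstand such damage.

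Values are RPKM, reads per kb scaled to the size of the library, where the length is that of the coding sequence for footprints and of the whole transcript for RNA. Because RPKM is relative to its library, a change in total RNA or total translation per cell cannot be seen. The paper reports from puromycin incorporation that Cis inhibited protein synthesis. A higher footprint RPKM therefore need not mean that more protein was made. Each RPKM corresponded to a whole number of reads, so depth could be read back. Each gene was represented by 1 transcript, with coding sequences between 309 bases (Pmaip1) and 993 bases (Mcl1), and the files identify the members that changed most as ENSMUSG00000007659 (Bcl2l1), ENSMUSG00000024521 (Pmaip1) and ENSMUSG00000027381 (Bcl2l11). Depth was 3375480 to 5204127 reads per footprint library, and 1985344 to 2901692 per RNA library. In RNA, 51.8 to 56.6% of reads lay on 3 transcripts (Lars2, Tmem38b, Mettl26), which left 862476 to 1341584 reads for everything else. The labelled cell type was checked against markers: 7 of 8 ductal and epithelial genes had a mean of 1 footprint RPKM or more. Their summed level of 6728 to 9795 came mostly from Krt8 (3214 to 4949), Krt18 and Krt19. Krt7 and Sox9 stayed between 9.19 and 30.9. Epcam, an epithelial adhesion molecule, passed narrowly with values between 0.287 and 1.83, and Muc1 (0.287 to 0.711) was the gene below 1. Mesenchymal markers were present as well, 4 of 4 at 1 RPKM or more. Their sum of 2898 to 3903 was nearly all Vim (2867 to 3862), while Cdh2, Zeb1 and Snai2 stayed between 2.56 and 31.7. Leukocyte, fibroblast and endothelial markers summed to at most 5.40, 4.09 and 0.666 footprint RPKM, and acinar markers to at most 6.12, all from Cela1.

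In untreated cells the 2 anti-apoptotic genes and Bak1 led the 10 members in footprints. Mean footprint levels in PBS were 119.7 ± 2.51 RPKM (SD, n = 2, as for all means here) for Mcl1, 108 ± 10.2 for Bcl2l1, 103 ± 2.98 for Bak1, 73.1 ± 2.46 for Bax, 58.1 ± 1.33 for Bad and 44.8 ± 3.13 for Bid. Pmaip1 (22.7 ± 1.30), Bcl2l11 (17.4 ± 0.841) and Bbc3 (3.12 ± 0.747) came far below them. Bcl2l1 and Bak1 lay closer together than the spread of Bcl2l1, while the other neighbours were further apart than their SDs. PBS RNA had another order, with Mcl1 at 29.6 ± 5.68 RPKM, Bax at 24.1 ± 0.361, Bak1 at 19.6 ± 0.715 and Bcl2l1 at 16.4 ± 0.976. Bik was practically silent: 1 footprint each in PBS replicate 1 and 21 h replicate 2, none in the other footprint libraries and none in any of the 6 RNA libraries, where a count of 0 allows up to 3 reads. It was the only member under the filter of a mean of 1 RPKM, so 9 members were tested.

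Bcl2l1 and Mcl1, the 2 anti-apoptotic members, moved in opposite directions in footprints by 21 h of Cis. Bcl2l1 stood at 115 and 101 RPKM in PBS (420 and 329 reads), 79.9 and 76.3 RPKM at 6 h and 54.7 and 59.8 RPKM at 21 h (141 and 146 reads). The 3 groups did not overlap, and every treated library was below both controls. The fall at 21 h was −0.95 on the log2(RPKM + 0.5) scale (SE 0.10), 0.519 of the PBS level, with adjusted p = 0.000267 in limma. In bulk libraries, fewer cells that express a gene and less of its RNA or translation per cell cannot be told apart. At 6 h the difference was −0.48 (SE 0.10, limma adjusted p = 0.0542), just outside the threshold of 0.05, and it passed in 4 of the 10 other settings tried, among them limma voom on the recovered reads (adjusted p = 0.00623).

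Mcl1, whose product must be made continuously, ran at 122 and 118 RPKM in PBS, 111 and 109 RPKM at 6 h and 152 and 158 RPKM at 21 h. The 21 h libraries were above all others, and the 6 h libraries below PBS by a margin that did not pass (−0.13, 95% interval −0.33 to 0.06, limma adjusted p = 0.393). The rise at 21 h was 0.34 (SE 0.08, limma adjusted p = 0.0130), a fold of 1.26. It no longer passed without the second 21 h library (0.30, adjusted p = 0.0587) or without the variance trend (adjusted p = 0.0548). The ratio of Mcl1 to Bcl2l1 footprints per kb was 1.05 and 1.17 in PBS, 1.39 and 1.43 at 6 h and 2.78 and 2.65 at 21 h.

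**Figure D1:**
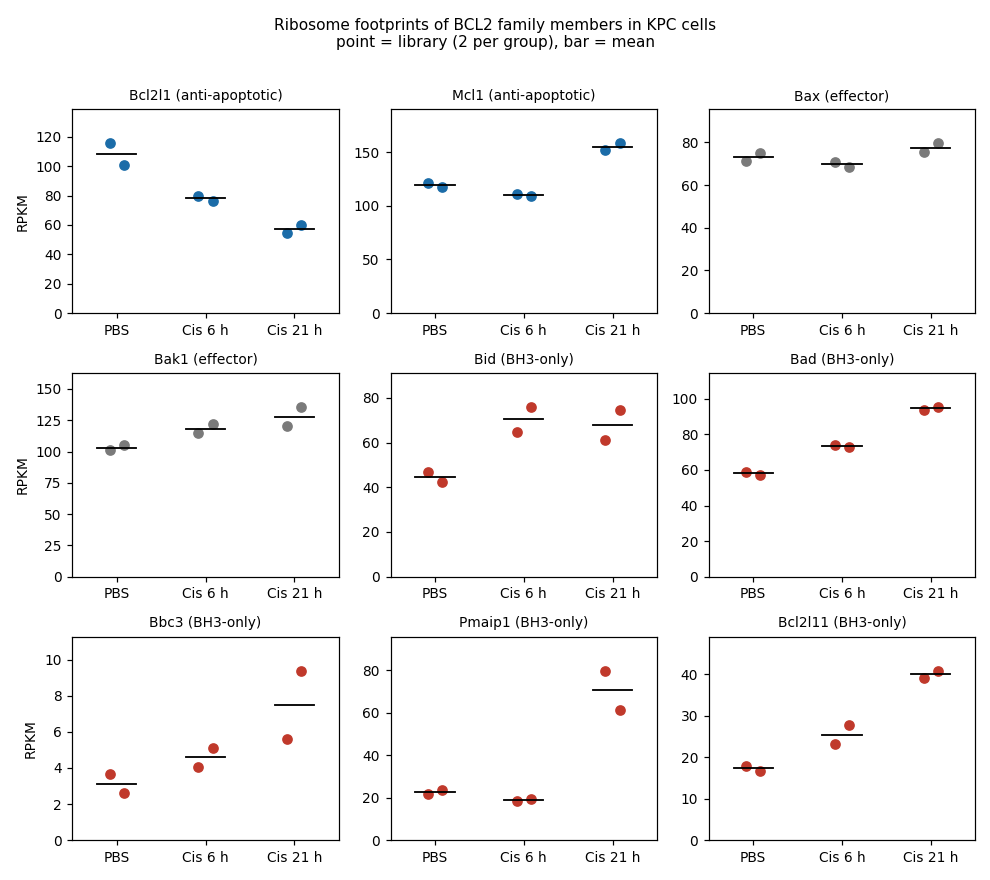
Footprint levels (RPKM, linear axis from 0) of the 9 members that were tested, by treatment group. Each point is 1 library, each bar the mean of 2, and colours mark anti-apoptotic (blue), effector (grey) and BH3-only (red) genes. Bcl2l1 steps down from 115 and 101 RPKM to 54.7 and 59.8, while Pmaip1 stays low until 21 h and both 6 h libraries of Bid (64.9 and 76.0) lie above PBS.

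Neither pore-forming effector passed the test in footprints. Bax footprints were 71.4 and 74.9 RPKM in PBS, 71.1 and 68.4 at 6 h and 75.4 and 79.5 at 21 h. The groups lay close together, and the 95% interval of the 21 h difference, −0.17 to 0.27 on the log2 scale, spans a shift of either sign. Bak1, which like Bax forms the pore but resides on mitochondria in healthy cells, gave 101 and 105 RPKM in PBS, 115 and 122 at 6 h and 120.3 and 136 at 21 h. All treated libraries of Bak1 were above both controls, yet the 21 h difference of 0.27 (SE 0.10) had a limma adjusted p of 0.0555. It passed on unscaled RPKM (adjusted p = 0.0324), with a filter of 5 RPKM (adjusted p = 0.0490) and without the first 21 h library (adjusted p = 0.0377).

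All 5 BH3-only members that could be tested were higher in footprints at 21 h than in PBS. Bmf, a BH3-only gene outside the 10 members, was not called and is described below. Over the family, 7 of 9 tested members passed at 21 h, 6 higher and 1 lower, where 39.1% of 10383 transcripts passed (18.9% higher and 20.2% lower). The median log2 difference was 0.55 over the 9 members and 0.0063 over all transcripts. At 6 h none of the 9 passed with limma, against 2.04% of transcripts, while 4 members had an unadjusted p under 0.05, as did 21.4% of transcripts.

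Pmaip1 (Noxa), which chiefly neutralises Mcl1, had the largest rise of the 9 and a late one. Its footprints were 21.8 and 23.6 RPKM in PBS (35 and 34 reads), 18.6 and 19.2 RPKM at 6 h (27 and 20 reads) and 79.9 and 61.2 RPKM at 21 h (91 and 66 reads). The 6 h libraries lay below the controls without passing (−0.27, limma adjusted p = 0.334), and the 21 h libraries were far above both other groups. The change at 21 h was 1.57 (SE 0.15, limma adjusted p = 0.000142), a fold of 2.96.

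Bcl2l11 (Bim), which binds all anti-apoptotic members and can engage Bax, was highest at 21 h. It gave 18.0 and 16.8 RPKM in PBS, 23.2 and 27.7 at 6 h and 39.2 and 40.9 at 21 h, with no overlap between groups. The 21 h rise was 1.15 (SE 0.13, limma adjusted p = 0.000353), a fold of 2.21, and the 6 h difference of 0.52 had adjusted p = 0.0828. Bbc3 (Puma), another binder of all anti-apoptotic members, was the scarcest of the tested genes, at 3.65 and 2.59 RPKM in PBS (11 and 7 reads), 4.05 and 5.12 at 6 h (11 and 10 reads) and 5.62 and 9.40 at 21 h (12 and 19 reads). Each treated library of Bbc3 exceeded both controls. Its 21 h rise was 1.09 (SE 0.29, limma adjusted p = 0.0179), but these counts are small, and the call was lost without the second PBS library (0.89, adjusted p = 0.113), without the second 21 h library (0.74, adjusted p = 0.104) and with voom on the reads (adjusted p = 0.0583).

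Bad, the BH3-only protein whose phosphorylation by survival kinases parks it on 14-3-3 proteins, and Bid, which is cleaved by caspase-8 to its active form, were more abundant. Bad footprints were 59.0 and 57.1 RPKM in PBS, 73.8 and 73.1 at 6 h and 94.0 and 95.4 at 21 h. Its replicates lay close together and its groups were separate. The change was 0.66 at 21 h (SE 0.09, limma adjusted p = 0.000767) and 0.32 at 6 h (adjusted p = 0.1002). Bid footprints were 47.0 and 42.5 RPKM in PBS, 64.9 and 76.0 at 6 h and 61.2 and 74.4 at 21 h. Both treated groups of Bid were above PBS and overlapped each other. The difference was 0.63 at 6 h (SE 0.13, limma adjusted p = 0.0512) and 0.55 at 21 h (adjusted p = 0.0106). The 21 h call for Bid was lost without the second PBS library (adjusted p = 0.0612) or the second 21 h library (0.41, adjusted p = 0.0608), and the 6 h difference passed in 5 of 10 other settings, voom among them (adjusted p = 0.00707).

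Bcl2l11 and Bbc3 are known targets of FOXO factors, so a FOXO core motif (gtaaaca, or tgtttac on the other strand) was looked for after the levels had been seen in the RefSeq promoters, which span 300 bases and end 50 bases past a start. The search did not cover the whole table, and Bik and Pmaip1 had no promoter among those searched. The other 8 members had 14 promoters, and the motif was in 1 promoter each of Bcl2l11 and Bbc3. It was in 3.65% of the 32851 promoters searched. These 2 are shown 5′ to 3′ on the GRCm38.p6 build, with the motif in capitals. The first is at chr2:128125788-128126087 on the plus strand, with the motif 227 bases before the start. The other is at chr7:16310011-16310310 on the plus strand, with the motif 167 bases before the start and read on the minus strand.
Bcl2l11: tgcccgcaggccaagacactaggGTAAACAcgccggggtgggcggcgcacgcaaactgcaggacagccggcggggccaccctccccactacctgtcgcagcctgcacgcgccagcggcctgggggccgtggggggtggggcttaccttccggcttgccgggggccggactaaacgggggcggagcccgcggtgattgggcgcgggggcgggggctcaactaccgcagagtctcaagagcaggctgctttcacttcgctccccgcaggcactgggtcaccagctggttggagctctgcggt
Bbc3: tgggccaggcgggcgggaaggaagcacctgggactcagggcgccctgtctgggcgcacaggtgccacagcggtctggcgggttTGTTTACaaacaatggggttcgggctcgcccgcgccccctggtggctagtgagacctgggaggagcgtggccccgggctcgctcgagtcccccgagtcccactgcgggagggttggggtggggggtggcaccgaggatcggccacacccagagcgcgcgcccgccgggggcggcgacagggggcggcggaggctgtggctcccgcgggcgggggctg
Which start the measured transcripts use was not matched to these promoters, and a match of letters is a description of the sequence. The same search found the cyclic AMP response element tgacgtca (1.79% of all promoters), the AP-1 motif tgagtca (5.2%) and the ATF4-CHOP core tgatgcaa (0.895%) in no promoter of the 8 members. The E-box cacgtg (7.15%) was in promoters of Bax and Bbc3. The GC box gggcgg (35.7%) was in those of Bad, Bax, Bbc3, Bcl2l11, Bid and Mcl1. Each motif was read on both strands.

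Summed by class, the footprint ratio of anti-apoptotic to pro-apoptotic genes was lower in all 4 treated libraries than in both controls, with most of the difference present at 6 h. Anti-apoptotic footprints per kb summed to 237 and 219 RPKM in PBS, 191 and 185 at 6 h and 207 and 218 at 21 h. The BH3-only sum was 149.8 and 143 RPKM in PBS, 185 and 201 at 6 h and 279.9 and 282 at 21 h, and the effector sum 172 and 179.9, 186 and 190.3, and 196 and 215. The BH3-only sum thus separated all 3 groups, whereas the higher anti-apoptotic sum at 21 h came within 1 RPKM of the lower PBS library. The ratio of anti-apoptotic to pro-apoptotic footprints was 0.736 and 0.679 in PBS, 0.516 and 0.473 at 6 h and 0.435 and 0.439 at 21 h. An exact permutation test of 2 libraries against 2 cannot give a p below 0.333, so these sums are given as descriptions. In RNA the ratio was 0.598 and 0.628 in PBS, 0.606 and 0.655 at 6 h and 0.479 and 0.678 at 21 h, so the groups overlapped. Without the highest gene on each side, which leaves Bcl2l1 alone on the anti-apoptotic side, the mean footprint ratios were 0.493, 0.298 and 0.160, in the same order. Bcl2l1 made up 20.7 and 18.7% of the family's summed footprint level in PBS and 8.02 and 8.36% at 21 h, while Mcl1 made up 21.7 and 21.8% and then 22.3 and 22.1%.

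**Figure D2:**
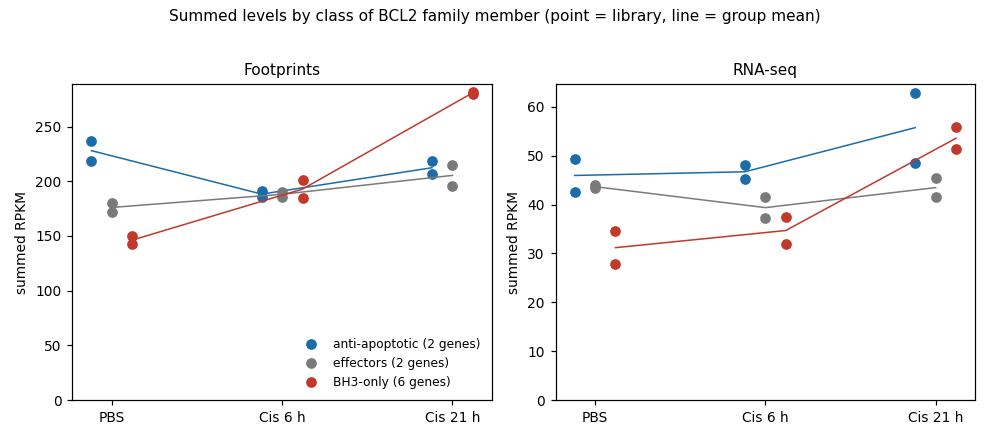
Summed RPKM of 2 anti-apoptotic, 2 effector and 6 BH3-only genes by group, footprints left and RNA-seq right, on linear axes from 0. Points are libraries and lines join group means. In footprints the 3 class means lie close together at 6 h (188 to 193 RPKM) and the BH3-only sum stands above the other classes at 21 h (279.9 and 282 RPKM), and in RNA 1 of the 21 h anti-apoptotic sums lies within the range of the PBS group.

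The RNA of the same genes was compared in the same way. At 6 h none of the 9 tested members passed, nor did any of 9443 transcripts (0.0%, limma), where 1 member (Pmaip1) and 11.5% of all transcripts had an unadjusted p under 0.05. At 21 h, 3 of 9 members passed, 2 higher and 1 lower, against 23.8% of transcripts (11.6% higher and 12.2% lower). Pmaip1 RNA was 3.28 and 3.41 RPKM in PBS, 5.17 and 5.08 at 6 h and 19.8 and 17.9 at 21 h (126 and 102 reads). Its 3 groups were separate already at 6 h (0.61, limma adjusted p = 0.306), and the 21 h rise of 2.25 (SE 0.19, limma adjusted p = 9.92e-05), a fold of 4.75, was the largest of the family. Bcl2l11 RNA was 5.65 and 5.20 RPKM in PBS, 6.20 and 5.16 at 6 h and 9.63 and 10.4 at 21 h. Only its 21 h libraries stood apart, by 0.74 (SE 0.19, limma adjusted p = 0.0203), and this call was lost when any 1 library of PBS or 21 h was left out (adjusted p up to 0.109).

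Bcl2l1 RNA was 17.1 and 15.7 RPKM in PBS, 16.3 and 15.7 at 6 h and 11.4 and 13.2 at 21 h. It overlapped PBS at 6 h, where footprints were lower in both libraries without passing (limma adjusted p = 0.0542). The TE difference at 6 h did not pass either (adjusted p = 0.475). Bcl2l1 RNA fell by 0.48 at 21 h (SE 0.15, limma adjusted p = 0.0393). The RNA call for Bcl2l1 was lost in 5 of 10 other settings (unscaled RPKM among them, adjusted p = 0.0863) and without any 1 library of PBS or 21 h (adjusted p up to 0.203). Mcl1 RNA was 25.6 and 33.6 RPKM in PBS, 29.0 and 32.4 at 6 h and 37.2 and 49.7 at 21 h. Both 21 h libraries of Mcl1 were above PBS by 0.46 on average (SE 0.16, limma adjusted p = 0.0639), which passed on unscaled RPKM (adjusted p = 0.0432), with voom (adjusted p = 0.000432) and without the first 21 h library (0.63, adjusted p = 0.0450).

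For the remaining genes no RNA difference was detectable at this depth. Bad RNA ranged from 9.84 to 15.96 RPKM over the 6 libraries and Bid RNA from 6.87 to 11.2. The treated libraries of Bid lay within its PBS range. The wide 6 h pair of Bad spanned its other groups, while both 21 h libraries of Bad (13.9 and 14.5) were above PBS (11.2 and 12.8) without passing. Bak1 RNA was lowest at 6 h (17.5 and 16.5 RPKM, against 19.1 and 20.1 in PBS) and Bax RNA ranged from 19.8 to 25.0. Bbc3 RNA rested on 4 to 17 reads per library and spread from 0.90 to 1.90 RPKM in PBS and from 1.58 to 4.02 at 21 h. The 21 h log2 differences of these 5 genes ran from −0.26 (Bid) to 0.68 (Bbc3).

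**Figure D3:**
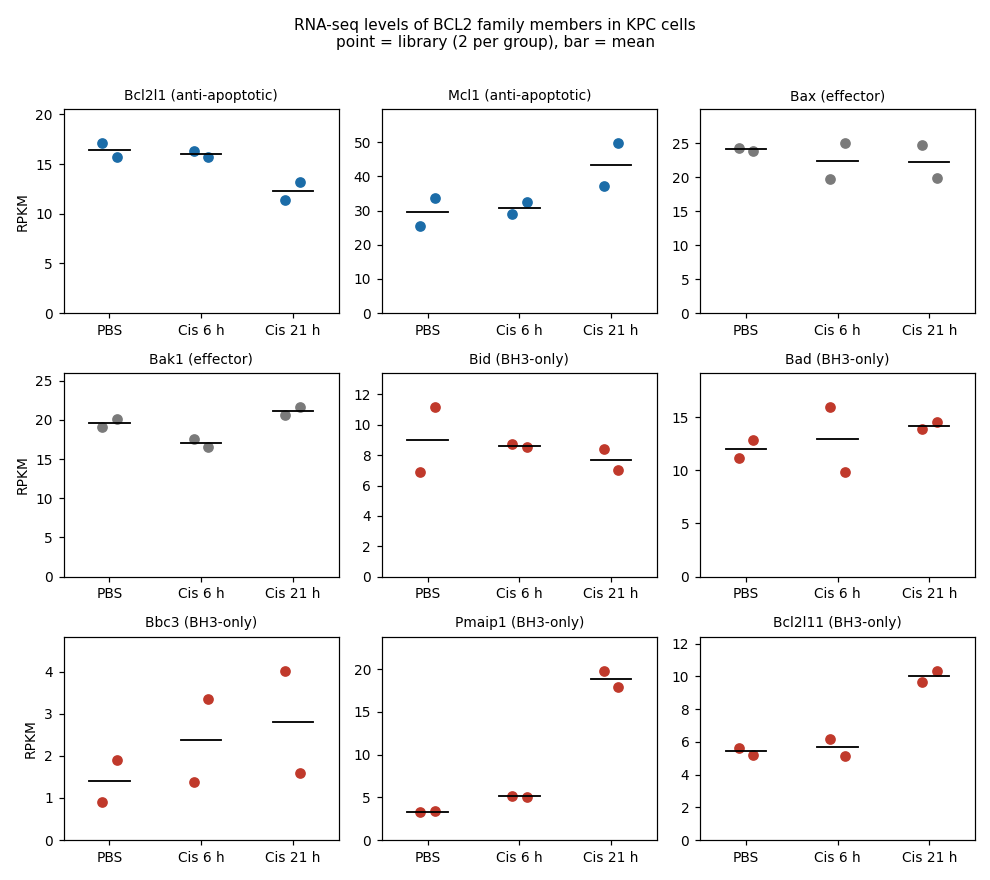
RNA-seq levels (RPKM, linear axis from 0) of the same 9 members by treatment group. Points are libraries and bars are means of 2. Pmaip1 and Bcl2l11 at 21 h stand clear of the other groups (17.9 to 19.8 and 9.63 to 10.4 RPKM), whereas the 21 h libraries of Bid, Bax and Bbc3 overlap with PBS.

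Translation efficiency (TE), here the footprint RPKM over the RNA RPKM of a gene, was compared as the difference between the footprint and the RNA change. None of the 9 members passed at either time in limma, where 0.0% of 9295 transcripts passed at 6 h and 0.409% at 21 h, nor did any between the 2 times (1.01% of transcripts). At an unadjusted p under 0.05 there were 2 members at 6 h (7.64% of transcripts) and 3 at 21 h (12.7%). Each ratio below divides a footprint library by the RNA library of the same replicate number. The labels do not state such a pairing and the limma test does not use it, so the spread of the ratios depends on that choice. Bcl2l1 had a ratio of 6.76 and 6.43 in PBS, 4.91 and 4.86 at 6 h and 4.81 and 4.52 at 21 h. Both treated groups were below PBS, by −0.51 at 6 h (95% interval −0.87 to −0.15, limma adjusted p = 0.475) and −0.46 at 21 h (−0.83 to −0.10, adjusted p = 0.285). The median ratio over all genes was 3.48 in PBS, 3.68 at 6 h and 3.32 at 21 h.

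Pmaip1 had a ratio of 6.64 and 6.92 in PBS, 3.60 and 3.77 at 6 h and 4.03 and 3.42 at 21 h. Its libraries fell into the untreated and the treated with no overlap, but the differences did not pass. They were −0.88 at 6 h (limma adjusted p = 0.303) and −0.68 at 21 h (adjusted p = 0.241). The PBS ratios of Pmaip1 rest on 22 and 27 RNA reads, and those at 6 h on 28 and 32 RNA reads and 27 and 20 footprints. How many of all genes separate in this way was not counted. Bid had a ratio of 6.84 and 3.81 in PBS, 7.42 and 8.93 at 6 h and 7.26 and 10.6 at 21 h. The PBS libraries of Bid were wide apart, with its RNA at 6.87 and 11.2 RPKM there, and the 21 h difference was 0.81 (95% interval 0.20 to 1.43, limma adjusted p = 0.268). For the other 6 genes the 95% interval of the TE difference included 0 at both times.

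**Figure D4:**
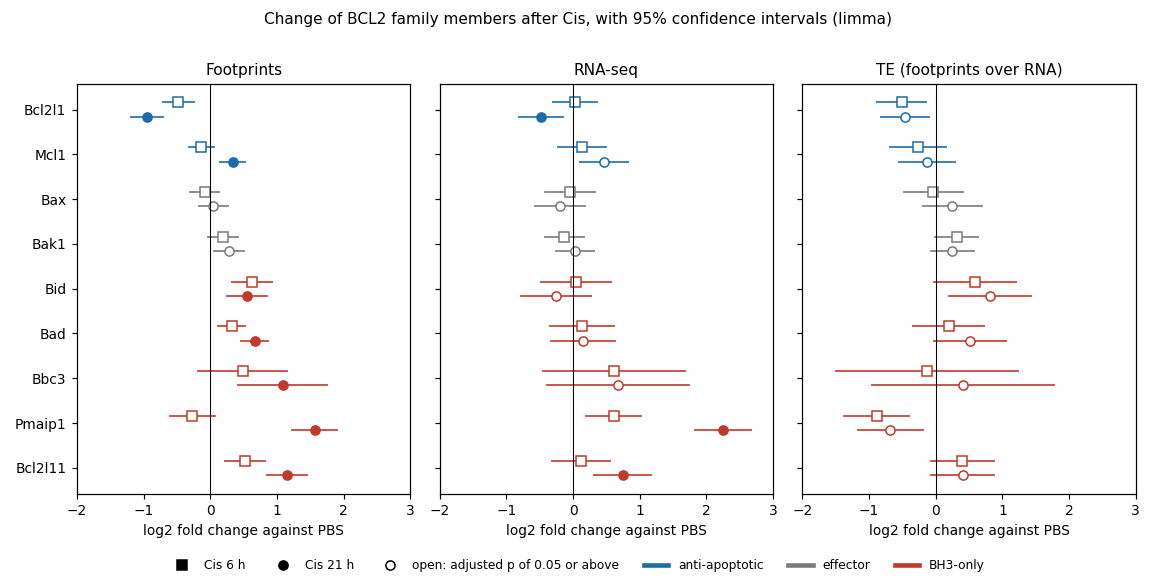
Log2 fold change against PBS of each tested member for footprints, RNA-seq and TE, with 95% confidence intervals from limma (squares 6 h, circles 21 h, filled where adjusted p was under 0.05). In footprints 7 of 9 circles are filled, in RNA-seq 3, and in TE none.

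The steps between the 2 treatment times differed by gene. Between 6 h and 21 h, 5 of 9 members passed in footprints (30.7% of transcripts, 15.0% higher and 15.7% lower). Pmaip1 (1.84, limma adjusted p = 0.000136), Bcl2l11 (0.63, adjusted p = 0.00903), Mcl1 (0.47, adjusted p = 0.00428) and Bad (0.34, adjusted p = 0.0219) rose and Bcl2l1 fell by 0.47 (adjusted p = 0.0108). Mcl1 and Pmaip1 had lain under their PBS levels at 6 h and were over them at 21 h. Bid differed by −0.08 between the times (95% interval −0.38 to 0.22). The call was lost for Bcl2l1 without either 6 h library (adjusted p = 0.0733 and 0.0515), for Bcl2l11 without the first 6 h library (0.50, adjusted p = 0.0696) and for Bad without any 1 of the 4 libraries (adjusted p up to 0.117). In RNA 2 of 9 members passed (15.7% of transcripts), Pmaip1 (1.64, limma adjusted p = 0.000794) and Bcl2l1 (−0.52, adjusted p = 0.0419), the latter not without any 1 of the 6 libraries (adjusted p up to 0.160).

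Of 15 other BCL2 family genes 9 had footprints to test, and at 21 h 1 was higher and 3 lower, near the 39.1% of all transcripts that passed, with a median log2 change of −0.04. In RNA none of 9 was higher and 3 were lower, where 23.8% of transcripts passed. Bcl2, the founding anti-apoptotic member, was scarce, at 9.50 and 9.09 footprint RPKM in PBS, 4.82 and 4.60 at 6 h and 3.45 and 2.43 at 21 h. It fell by 1.56 at 21 h (SE 0.22, limma adjusted p = 0.00100), and its RNA fell by 1.90 (adjusted p = 0.00633). Bcl2l15 was 4.60 and 3.43 RPKM in PBS, 0.851 and 2.96 at 6 h and 23.8 and 14.9 at 21 h, a rise of 2.08 (SE 0.42, limma adjusted p = 0.00524). Bnip3 and Bnip3l, mitophagy receptors of the outer membrane, fell by 0.79 and 0.67 in footprints (limma adjusted p = 0.00117 and 0.00536). Bmf, a further BH3-only gene, was not called. Its footprints were 7.1 and 8.4 RPKM in PBS, 10.2 and 8.7 at 6 h and 9.3 and 8.1 at 21 h, so the 21 h libraries overlapped PBS. It is named after its values were seen.

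Of 8 tested genes that set the turnover of Mcl1 and its relatives, 3 were lower and none higher in footprints at 21 h (median −0.50), a share near the 39.1% of all transcripts. Usp9x, a deubiquitinase that stabilises Mcl1, went from 34.2 and 33.6 RPKM in PBS to 25.8 and 25.9 at 6 h and 16.9 and 15.5 at 21 h (−1.08, SE 0.12, limma adjusted p = 0.000318). Huwe1, the ubiquitin ligase also called Mule that marks Mcl1 for degradation, went from 11.3 and 12.0 to 6.55 and 7.02 RPKM at 21 h (−0.77, limma adjusted p = 0.00782). Btrc, an F-box protein of another ligase, fell by 1.70 (limma adjusted p = 0.000318). Usp9x and Huwe1, which act on Mcl1 in opposite ways, were thus both lower. In RNA only Btrc of the 8 passed at 21 h (−1.54, limma adjusted p = 0.0165), against 23.8% of transcripts. The RNA differences of Usp9x (−0.44, limma adjusted p = 0.0547) and Huwe1 (−0.48, adjusted p = 0.0599) lay just outside the threshold.

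Among factors known to transcribe family members, 10 of 12 tested passed in footprints at 21 h, 6 higher and 4 lower (median 0.26), where 39.1% of all transcripts passed (18.9% higher and 20.2% lower). Ddit3 (CHOP), a known activator of Bcl2l11, was 11.8 and 11.1 RPKM in PBS, 18.2 and 20.0 at 6 h and 153 and 140.3 at 21 h. It was one of 3 factors that passed already at 6 h (0.70, limma adjusted p = 0.0343), with Atf3 (0.98, adjusted p = 0.00801) and Jun (0.65, adjusted p = 0.0428). No gene of the other 4 lists passed in footprints at 6 h, where 2.04% of all transcripts did. Atf4, which can activate Pmaip1, rose by 1.94 at 21 h and was the only listed gene with a called TE difference at 21 h (0.95, limma adjusted p = 0.0360). Trp53, the activator of Bbc3 and Pmaip1 and mutant in this model, rose by 0.59 (limma adjusted p = 0.00132). Foxo3 and Foxo1 fell by 1.04 and 0.63 (limma adjusted p = 0.00443 and 0.00643). In RNA 6 of these 12 factors were higher and 3 lower, against 11.6% and 12.2% of transcripts. Trp53, Foxo3 and Foxo1 are named here after their values were seen.

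Kinases, phosphatases and 14-3-3 proteins that act on Bad gave 1 higher and 5 lower of 14 tested in footprints at 21 h (median −0.20), near the 39.1% of all transcripts that passed. Ppp3ca, a catalytic subunit of calcineurin, which dephosphorylates Bad, fell from 17.7 and 19.4 to 3.47 and 4.03 RPKM (−2.20, limma adjusted p = 5.84e-05). Akt1 and Akt2, kinases of Bad, fell by 0.53 and 0.48 (limma adjusted p = 0.0436 and 0.0248), Ywhaz and Ywhae, 14-3-3 proteins, by 0.46 and 0.29 (adjusted p = 0.00139 and 0.0418), and Pim3, a further Bad kinase, rose by 0.70 (adjusted p = 0.00280). Akt2, Ywhaz and Ywhae were added after their values were seen. In RNA 1 of the 14 was higher and 4 were lower, where 23.8% of transcripts passed.

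Downstream of the outer membrane, 1 of 13 tested genes passed in footprints at 21 h, where 39.1% of all transcripts did. It was Birc5 (survivin), an inhibitor of apoptosis family member with a mitotic role, which rose from 286 and 309.6 RPKM to 470 and 511 (0.68, limma adjusted p = 0.000564). Apaf1, the apoptosome scaffold, stayed between 5.69 and 7.03 RPKM over the 6 libraries. In RNA 2 of 15 were higher, Birc5 and Diablo (Smac), an antagonist of those inhibitors, and 1 lower (Vdac1), against 23.8% of transcripts. Diablo rose by 1.13 (limma adjusted p = 0.00340). Cycs, cytochrome c itself, was not listed in any footprint library, and so set to 0, while its RNA was between 5.74 and 10.04 RPKM. The cause was not tested. Apaf1 and Cycs are named after their values were seen.

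**Figure D5:**
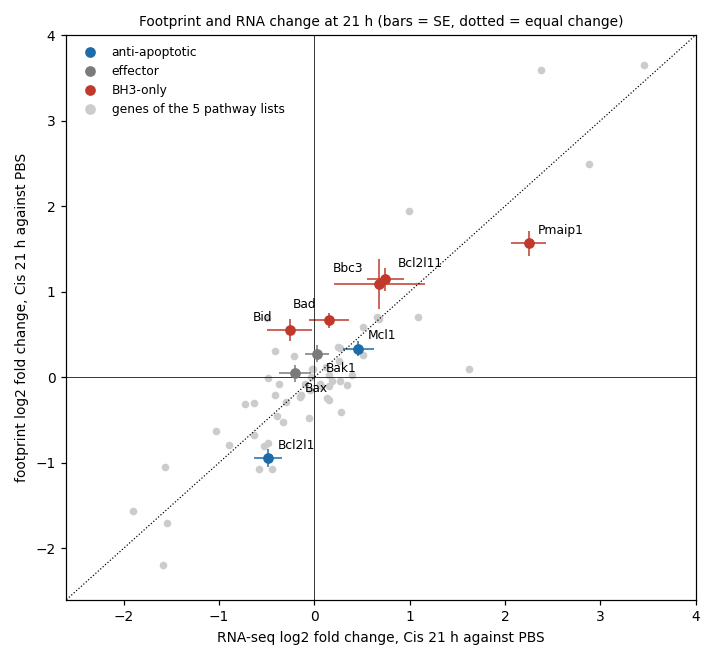
Footprint against RNA-seq log2 fold change at 21 h, Cis against PBS. Coloured points are the 9 tested members with SE bars, grey points the genes of the 5 pathway lists, and the dotted line marks equal change. Pmaip1 lies under the line (RNA 2.25, footprints 1.57), while Bid and Bad lie above it and Bcl2l1 below it.

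The genes whose profile over the 12 libraries came closest to a member's, by the root mean square difference of log2(RPKM + 0.5) centred on a gene's mean within each assay, were taken from 9295 genes for the 7 members called in footprints at 21 h. They were Ptprf (0.093) and Xpo7 (0.1) for Bcl2l1, Srprb (0.0577) and Oard1 (0.0751) for Mcl1, Itgb1bp1 (0.104) and Setd1b (0.136) for Bid, Wdr6 (0.097) and Eif4e2 (0.101) for Bad, and Etv3 (0.0984) and Smcr8 (0.0994) for Bcl2l11. The nearest genes of Pmaip1 (Polr2a, 0.237, and Areg, 0.242) and Bbc3 (Hmces, 0.288, and Zfp426, 0.293) were further away, where the median distance over all genes ran from 0.333 for Mcl1 to 0.907 for Pmaip1. All 12 values of a pair come from the same libraries. Annotated neighbours may limit some values. By whole gene span, introns included, 6 of the 10 members overlap another gene in RefSeq on GRCm38.p6 (Bcl2l1, Bak1, Bid, Bad, Bik, Bcl2l11). Whether their exons overlap was not examined, and strandedness of the counting is not given in the sources used here. Where exons do overlap, reads of such pairs may not be told apart.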

How the data were processed

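The deposited tables hold 1 RPKM per representative transcript for each of the 12 libraries, made by the authors from trimmed and aligned reads. The submitters' notes name cutadapt, STAR and GRCm39, and their versions are not given in the sources used here. Footprints were counted per kb of coding sequence and RNA per kb of transcript, and a transcript that a library does not list was set to 0. RPKM times length gave whole numbers of reads, within 0.01, for all values. Size factors by the median of ratios were applied to the libraries of each assay on their own. Transcripts with a mean of at least 1 RPKM were tested on log2(RPKM + 0.5) in limma 3.58.1 (R 4.3.3; moderated, with a variance trend), with 3 groups in 1 model, and TE as the assay by treatment interaction over 12 libraries. Tests were two-sided, adjusted by Benjamini-Hochberg over all transcripts, with a threshold of 0.05, and were first tested on simulated data. The pseudocount understates changes of scarce genes. The 2 libraries of each group differed by more than sampling noise (chi-square over degrees of freedom 1.46 to 4.12), so none was treated as a repeat deposit of another, and the source of this spread is not known. Limits of counts cover counting error only. All 10 members were reported in each comparison. From 5 pathway lists, the genes named were those past the threshold, at most the 3 with the largest change in a comparison, with exceptions stated. Members, lists and motifs were chosen with earlier results of these data known. Alternatives were other pseudocounts, filters and scalings, no variance trend, only the groups compared, the replicate block, voom on recovered reads and each library left out. Promoters came from RefSeq tables on GRCm38.p6. Some items are not reported here.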

Additional observations from a re-analysis of the deposited data

Results flagged for a closer look

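For 5 of 9 members the footprint change at 21 h differed from that at 6 h, by limma's test of the difference itself. Both changes are against the same PBS libraries, and 30.7% of all transcripts passed this test. The difference (21 h minus 6 h, log2) was 1.84 for Pmaip1, 0.63 for Bcl2l11, 0.47 for Mcl1, 0.34 for Bad and −0.47 for Bcl2l1. In RNA it was 1.64 for Pmaip1 and −0.52 for Bcl2l1, where 15.7% of all transcripts passed. Pmaip1 is the gene in which both assays gave a later rise, while for Bcl2l1 RNA the adjusted p was 0.0419 and rose to as much as 0.160 with a library left out.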

How the results depend on the processing

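Footprint changes of Bcl2l1, Bad, Pmaip1 and Bcl2l11 and the RNA change of Pmaip1, all at 21 h against PBS, kept direction and call in every alternative fit and without each library. The count of members called at 6 h in footprints (0) was 3 at an adjusted p under 0.1, 1 with a pseudocount of 1, and 2 with a filter of 5 RPKM, with quantile normalization, with only the groups compared and with voom. With an absolute log2 change above 1 required as well, the count was 3 instead of 7 (footprints, 21 h), 1 instead of 5 (footprints, 21 h against 6 h), 1 instead of 3 (RNA, 21 h) and 1 instead of 2 (RNA, 21 h against 6 h). The last was also 1 with no filter, no variance trend, only the groups compared or the replicate block, and 4 with voom. With each library left out, the counts ran from 0 to 2 (footprints, 6 h), 4 to 8 (21 h), 2 to 5 (21 h against 6 h), 1 to 3 (RNA, 21 h) and 1 to 1 (RNA, 21 h against 6 h); a lone library was assumed to vary like the other groups. The lowest of these came without footprint 21 h replicate 2 (4), without footprint 6 h replicate 1 (2), and without RNA PBS replicate 1 or 2 or RNA 21 h replicate 2 (1). RNA at 6 h and TE gave 0 throughout. The share of all transcripts called at 6 h in footprints ran from 0% without the variance trend to 12.3% with voom. Without the highest member on each side, the ratio of anti- to pro-apoptotic sums was 0.493, 0.298 and 0.160 in footprints (PBS, 6 h, 21 h) and 0.326, 0.310 and 0.167 in RNA, against 0.707, 0.495 and 0.437 and 0.613, 0.631 and 0.579 with all members; the removal leaves Bcl2l1 alone on the anti-apoptotic side.

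Some uncalled values changed sign. Quantile normalization turned Bax footprints (−0.050) and Bak1 RNA (−0.078) at 21 h, and unscaled RPKM turned Bcl2l1 RNA (−0.034), Bid RNA (−0.023) and Bax TE (0.047) at 6 h. Over the libraries left out, Bax footprints at 21 h ran from −0.0069 to 0.10. RNA at 6 h ran from −0.041 to 0.11 (Bcl2l1), −0.045 to 0.31 (Mcl1), −0.21 to 0.11 (Bax), −0.28 to 0.36 (Bid), −0.21 to 0.47 (Bad) and −0.0045 to 0.25 (Bcl2l11), and Bid RNA at 21 h from −0.58 to 0.059. TE ran from −0.20 to 0.13 (Bax), −0.15 to 0.53 (Bad) and −0.64 to 0.39 (Bbc3) at 6 h, and from −0.31 to 0.052 (Mcl1) and −0.18 to 0.99 (Bbc3) at 21 h. Same-numbered libraries of different groups did not deviate together (r from −0.081 to 0.077 over 5575 genes), so the replicate block, which changed only the RNA calls of Bcl2l1 (adjusted p = 0.0545 at 21 h) and Mcl1 (adjusted p = 0.0262 at 21 h), rests on a shared number. Depth limits Bbc3 most, at 7 to 19 footprints and 4 to 17 RNA reads per library. The causes of these changes were not tested.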

Other observations

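The ratio of the effectors was not used in any comparison above. Bax over Bak1 in footprints per kb was 0.708 and 0.713 in PBS, 0.618 and 0.561 at 6 h and 0.627 and 0.586 at 21 h, lower in all 4 treated libraries than in both controls. In RNA the same ratio had group means of 1.23 ± 0.0635 in PBS, 1.32 ± 0.272 at 6 h and 1.06 ± 0.198 at 21 h (SD, n = 2), with wider spread. In PBS the footprint to RNA ratios of Pmaip1 and Bcl2l1 lay at the mean percentiles 82.7 and 81.7 over all genes, and that of Bax at 42.6. Bcl2l2, the anti-apoptotic BCL-W, was not listed, and so set to 0, in the 4 footprint libraries of PBS and 6 h. It had 1.41 and 0.989 RPKM at 21 h and RNA between 1.36 and 3.55 RPKM. Diablo footprints were at most 0.270 RPKM before 21 h and 2.29 and 2.01 at 21 h. Why footprints of these genes were so few was not tested.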
